A study of Mus musculus with 6 samples.

Results

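Integrins are the cell surface receptors that hold cells to the extracellular matrix, and laminins, nidogens, perlecan and agrin are the core proteins of the basement membrane to which many of them bind. The genes described here are the integrin chains Itga1 to Itga7, Itga9, Itga11, Itgav, Itgal, Itgam and Itgb1 to Itgb6 and Itgb8, the laminin chains Lama1 to Lama5, Lamb1 to Lamb3, Lamc1 and Lamc3, the nidogens Nid1 and Nid2, the perlecan gene Hspg2 and the agrin gene Agrn. They were chosen by symbol, with earlier results of these data known. They made up 33 of the 13965 rows of the table, with 19 integrin chains, 10 laminin chains and 4 other basement membrane proteins. Itga10, Itgae and Itgb7, which would also belong, were not analysed here.

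An integrin is a pair of an alpha and a beta chain, and the pair decides the ligand: alpha 6 with beta 1 or beta 4 binds laminin, alpha 5 with beta 1 binds fibronectin, and alpha v pairs bind fibronectin, vitronectin or latent TGF-beta. A laminin is a trimer of an alpha, a beta and a gamma chain, and laminin trimers form a sheet that nidogens, perlecan and agrin tie to the collagen IV network. In the developing kidney, laminin alpha 1 accompanies the first epithelial structures and laminin alpha 5 the mature tubule and glomerular basement membranes, and integrin alpha 8, which is not among the genes described here, is needed for ureteric bud outgrowth.

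RNA-seq was done on whole kidneys from embryonic day 16 mice, in 6 libraries. Mutant kidneys were Six2-TGC; miR-17~92 flx/flx, which means that Cre recombinase is made from a Six2 transgene, in nephron progenitors, and that the microRNA cluster miR-17~92 is floxed on both chromosomes. Control kidneys were labelled WT with miR-17~92 flx/+, so they carried 1 floxed copy, and no transgene is named for them. Each of 3 litters gave 1 mutant and 1 control library, numbered 1 to 3 below by litter. The labels state neither how many animals stand behind a library nor that controls had the transgene. Transgene and deletion therefore cannot be told apart as sources of a difference. Where libraries are paired by litter, p-values cover the spread of the within-litter differences over these 3 litters, and otherwise the spread between these samples. Cre is driven in the nephron lineage, while whole kidneys also hold stroma, vessels and the ureteric tree.

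Values are given as CPM, read counts scaled to a common library size. Library totals, inferred from the step between low CPM values, were 48304108, 54913325 and 46672915 reads in mutants 1, 2 and 3, and 43804667, 44011788 and 49473404 reads in controls 1, 2 and 3. The row that holds Mir17hg, the host transcript of the cluster, with the microRNA genes inside it was higher in mutants (log2 difference 0.57, adjusted p = 0.0292), at 46 ± 7.01 CPM in mutants and 31.2 ± 7.18 CPM in controls (SD, n = 3 each), but the value does not separate reads of the floxed segment from other reads, so it does not check the deletion. Six2 stood at 38.6 ± 6.68 CPM in mutants and 50.6 ± 7.95 CPM in controls (SD, n = 3 each). It was lower in mutants, with a log2 difference of -0.39 (limma, adjusted p = 0.00626). Markers of kidney cell types were present in every library, and 6 of 11 nephron progenitor markers were lower in mutants (adjusted p below 0.05), with summed levels of 632 to 640.2 CPM in mutants and 857 to 871 CPM in controls. Capn6 alone averaged 136 CPM in mutants and 286 CPM in controls. This list was drawn up with earlier results known and holds Capn6, Cited1, Meox1 and Meox2 (log2 differences -1.07, -2.07, -1.54 and -2.47). Its count and sums are therefore no independent result. Osr1, Crym, Itga8, Gdnf and Sall1 of the list were not called. Of 13 endothelial markers 5 were higher and none lower, with sums of 1297 to 1332 CPM in mutants and 1168 to 1183 CPM in controls. Of 14 stromal markers 2 were higher and none lower, with sums of 5045 to 6096 CPM in mutants and 4536 to 5008 CPM in controls. The sums of these 3 lists, and of the ureteric epithelium list that follows, did not overlap between groups. Of 13 ureteric epithelium markers 4 were higher and none lower, with sums of 985 to 1053 CPM in mutants and 909.5 to 952.5 CPM in controls. Of 10 podocyte markers none was higher and 2 lower, with sums of 1020 to 1123 CPM in mutants and 1086 to 1248 CPM in controls. Beside these counts, 7.93% of all rows tested were called higher and 3.51% lower. With the length correction described below, 2 endothelial, 1 stromal and 3 ureteric markers were higher, beside 2.63% of all rows. In that fit 6 nephron progenitor and 2 podocyte markers were lower, beside 2.01% of all rows. The part of these shifts in the differences described below was not tested, and in whole organ RNA fewer cells of a type and less RNA per cell cannot be told apart.

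The floxed cluster encodes 6 mature microRNAs from chromosome 14, which fall into 4 families by seed, the bases 2 to 8 that pair with a target. They are shown because these are the molecules encoded by the floxed segment. Sequences are from RefSeq (build GRCm38.p6, plus strand, positions 115043684 to 115044496), with the seed in capitals.
miR-17-5p: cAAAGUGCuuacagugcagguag
miR-20a-5p: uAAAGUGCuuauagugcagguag
miR-18a-5p: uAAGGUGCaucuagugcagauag
miR-19a-3p: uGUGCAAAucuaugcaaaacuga
miR-19b-3p: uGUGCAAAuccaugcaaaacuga
miR-92a-3p: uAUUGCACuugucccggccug

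Matches to these seeds were searched in the 3′ untranslated region (3′ UTR) of 1 coding transcript per gene, the longest, from GENCODE M21 (build GRCm38), on the transcript strand. A match was GCACTTT or CACTTTA for miR-17/20a, GCACCTT or CACCTTA for miR-18a, TTTGCAC or TTGCACA for miR-19, and GTGCAAT or TGCAATA for miR-92a. The motifs of a family share 6 bases, and where both overlapped they were counted as 1 match of 8 bases. Of the 33 genes 15 had a match, 45.5%, beside 46.3% of the 13098 rows searched. By family, 6 genes matched miR-17/20a, 2 matched miR-18a, 7 matched miR-19 and 7 matched miR-92a, beside 22.1%, 14.7%, 19.6% and 14.2% of rows. Among genes that were higher in mutants, Itgb8 had 7 matches, Itgav and Lamc1 had 4 each, Itga1 and Itga6 had 2 each and Itga5 had 1. For these 6 genes the following lines give 1 or 2 of their matches, with the matching bases in capitals.
Itga6, miR-19: cctaaggctcctgtTTTGCACAgcc
Itga6, miR-92a: gttctgtcttaaatGTGCAATAgaa
Itga1, miR-19: taaaggcattgaacTTTGCACAtgg
Itga5, miR-92a: aaactctgttgcaaGTGCAATAaac
Itgav, miR-19: agaccatcagtaagTTTGCACAggc
Itgav, miR-92a: gtcattgttcttaaGTGCAATAtaa
Itgb8, miR-17/20a: agactagtgttgtaGCACTTTAttg
Itgb8, miR-19: attataagtaccaaTTTGCACAtta
Lamc1, miR-17/20a: cccatctagttcctGCACTTTgtgg
Lamc1, miR-18a: gccttgtgtttgcaGCACCTTcact

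A match is a run of letters and not a measured binding site. Most laminin chains had short 3′ UTRs without a match, such as Lamb2 with 110 bases, Lamb1 with 151, Lama4 with 155, Lama5 with 174 and Lama1 with 198. Nid1, Nid2, Hspg2 and Agrn also had no match in 3′ UTRs of 2202, 591, 966 and 1206 bases.

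The comparison asks which receptors and matrix proteins differed between mutant and control kidneys of the same litter. Basement membrane genes were broadly higher in mutants: 7 of 10 laminin chains and all 4 of Nid1, Nid2, Hspg2 and Agrn rose, by 1.13-fold to 1.38-fold. Among integrins 7 of 19 chains rose, by 1.14-fold to 1.47-fold, and the common beta chain Itgb1 was not called. No gene of the set fell. The 18 that rose compare with 7.93% of all 13766 rows tested that rose and 3.51% that fell. With the trend on transcript length described below removed, 6 of the 18 were still called. In that fit 2.63% of all rows were called higher and 2.01% lower. A gene was called where limma, fitted to log2(CPM + 0.5) with litter as a term, gave a Benjamini-Hochberg adjusted p below 0.05 over all rows tested. Every adjusted p below is from this fit unless another is named. At an unadjusted p below 0.05 limma put 23 of the 33 genes higher and 1, Itgb5, lower, beside 2458 rows higher and 1564 lower over the whole table.

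The differences were small and pointed one way. Over the 33 genes the median log2 difference was 0.25, beside 0.01 over all rows tested, and 31 of 33 differences were above 0. In 26 of the 33 genes the mutant library was above its litter's control in all 3 litters, beside 28.3% of all rows. In 12 of 33 the 3 mutant libraries lay above all 3 control libraries, beside 10.2% of all rows. None was called by limma when litter was left out of the model, a fit that called 0.363% of all rows higher and 0.196% lower, so each call rests on the pairing by litter. At an unadjusted p below 0.05 that fit put 16 of the 33 higher and 0 lower. Without litter 1 the calls dropped to 1 integrin chain, Itga6, and 5 of the basement membrane genes, Lama1, Lama2, Lama5, Lamc1 and Hspg2, while calls over all rows, in either direction, were 304 in place of 1574 (11.4%). Itga5, Itgav and Lamb2 also lost their call without litter 2, and Itgb4 without litter 3.

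**Figure D1:**
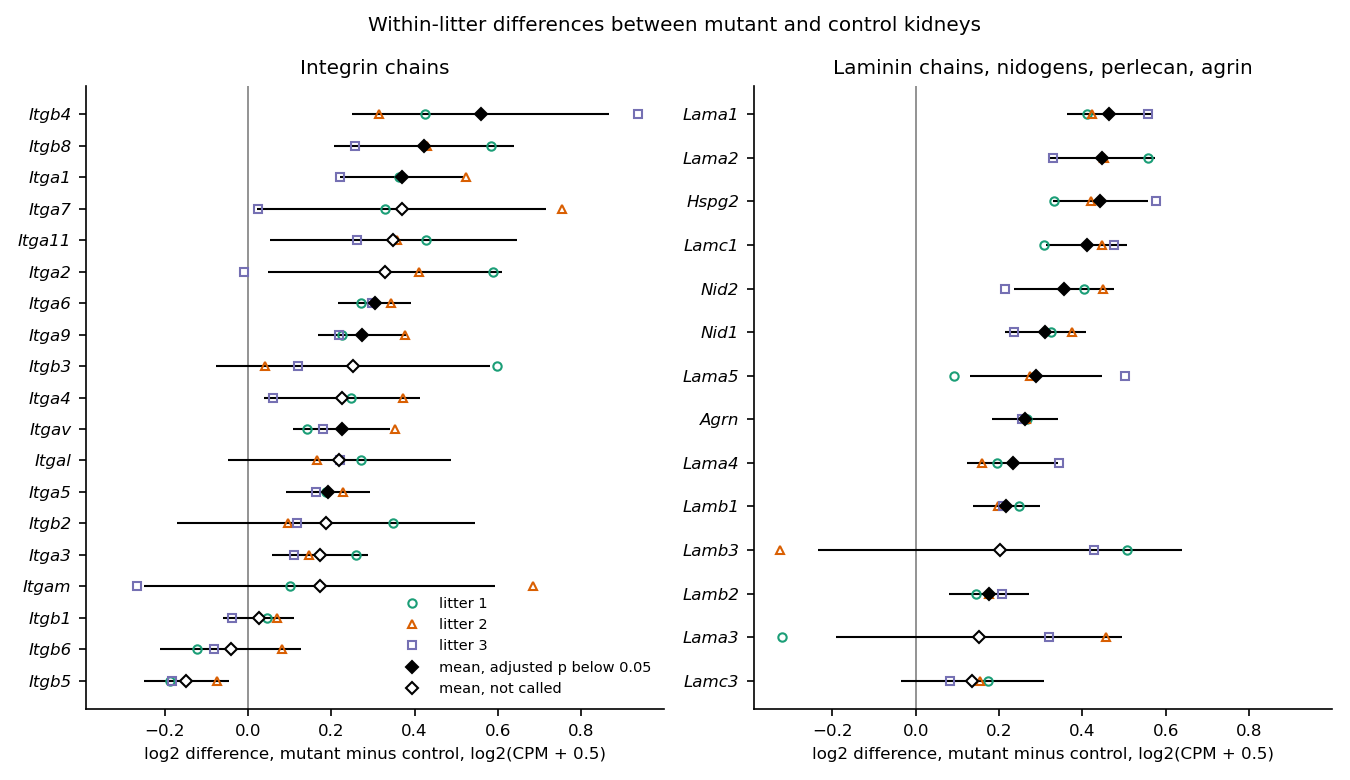
Log2 difference between mutant and control kidneys (mutant minus control, on the log2(CPM + 0.5) scale) for 19 integrin chains (left) and 14 laminin, nidogen, perlecan and agrin genes (right). Open coloured symbols are the 3 litters, diamonds the mean (filled where the adjusted p was below 0.05), and lines the 95% interval from limma; 31 of the 33 means lie to the right of 0.

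Of 5 laminin alpha chains 4 rose. Lama1, the alpha chain of the first epithelial basement membranes, was at 313, 364 and 301 CPM in mutants 1, 2 and 3, against 235, 271 and 204 CPM in controls 1, 2 and 3. It was 1.38-fold higher (95% interval 1.29 to 1.48, adjusted p = 0.00143), its groups did not overlap, and it rose the most of the basement membrane genes. Lama2, the alpha chain of muscle and mesenchymal laminin, was at 106, 95.4 and 93.5 CPM in mutants 1, 2 and 3, against 72, 69.6 and 74.3 CPM in controls 1, 2 and 3. All 3 mutant values of Lama2 lay above every control value, and the level was 1.36-fold higher (95% interval 1.25 to 1.49, adjusted p = 0.00365). The gap between mutant and control was widest in litter 1 for Lama2 and in litter 3 for Lama1.

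Lama4, the alpha chain of vessel walls, was at 249, 251 and 241 CPM in mutants 1, 2 and 3, against 217, 224 and 189.6 CPM in controls 1, 2 and 3. The groups did not overlap and Lama4 was 1.17-fold higher (95% interval 1.09 to 1.27, adjusted p = 0.0207). Lama5, the alpha chain of mature tubules and glomeruli, was at 249, 338 and 329 CPM in mutants 1, 2 and 3, against 233, 279.5 and 232 CPM in controls 1, 2 and 3. The groups overlapped, since mutant kidney 1 was below control kidney 2, and the level was 1.22-fold higher (95% interval 1.1 to 1.36, adjusted p = 0.0341). The log2 difference of Lama5 was 0.09 in litter 1, 0.27 in litter 2 and 0.50 in litter 3, and the mean without litter 3 was 0.18. Lama3, the alpha chain of epidermal laminin, was scarce and mixed in direction, with a log2 difference of 0.15 (adjusted p = 0.543) and values of 6.63 to 10.8 CPM in mutants and 6.27 to 8.57 CPM in controls.

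Of the 5 beta and gamma chains of the set 3 rose. Lamb1, the beta chain of most laminins in the embryo, was at 811, 879 and 766 CPM in mutants 1, 2 and 3, against 683, 767 and 663 CPM in controls 1, 2 and 3. It was 1.16-fold higher (95% interval 1.1 to 1.23, adjusted p = 0.00949), with mutant above control in each litter although the ranges overlapped. Lamb2, the beta chain of the glomerular basement membrane, was at 144, 179 and 145 CPM in mutants 1, 2 and 3, against 129.9, 159 and 126 CPM in controls 1, 2 and 3. Both groups peaked in litter 2, the groups overlapped, and Lamb2 was 1.13-fold higher (95% interval 1.06 to 1.21, adjusted p = 0.0341).

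Lamc1, the gamma chain shared by most laminin trimers, was at 681, 828 and 804 CPM in mutants 1, 2 and 3, against 550.1, 607 and 578 CPM in controls 1, 2 and 3. Its groups did not overlap, and it was 1.33-fold higher (95% interval 1.24 to 1.42, adjusted p = 0.00202), the largest rise among these 5 chains. Lamb3, the epidermal beta chain, had 1.82 to 2.09 CPM in mutants and 1.32 to 2.41 CPM in controls, and Lamc3 had 16.45 to 20.03 CPM in mutants and 15.52 to 17.95 CPM in controls. Neither Lamb3 (log2 difference 0.20, adjusted p = 0.521) nor Lamc3 (0.14, adjusted p = 0.267) was called.

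On a scale per kilobase of transcript, which lets chains be compared with each other, alpha chain RNA consisted mainly of Lama4, Lama1 and Lama5, and beta chain RNA of Lamb1. Lama1 made up 30.5%, 31.8% and 28.4% of alpha chain RNA in mutant kidneys 1, 2 and 3, against 27.6%, 29.1% and 26.2% in controls 1, 2 and 3. Lama4 was the most abundant alpha chain, with 34.5% to 38.3% in mutants and 37.9% to 40.2% in controls. The share of Lama1 was thus higher and that of Lama4 lower in the mutant of every litter. Lamb1 held 82.5% to 84.4% of beta chain RNA in mutants and 82.2% to 83.5% in controls. No test was run on these shares, and the trend on length was not removed from them.

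The proteins that link laminin to the rest of the basement membrane all rose. Nid1, which bridges the laminin gamma 1 chain and collagen IV, was at 309.5, 302 and 313 CPM in mutants 1, 2 and 3, against 247, 232 and 266 CPM in controls 1, 2 and 3. The 3 mutants of Nid1 lay close together and above all controls, and the level was 1.24-fold higher (95% interval 1.16 to 1.33, adjusted p = 0.00506). Nid2, its paralogue, was at 206, 244 and 221 CPM in mutants 1, 2 and 3, against 156, 178 and 191 CPM in controls 1, 2 and 3. Nid2 did not overlap between groups either and was 1.28-fold higher (95% interval 1.18 to 1.39, adjusted p = 0.00725).

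Hspg2, which encodes the heparan sulfate proteoglycan perlecan, was at 438, 622 and 581 CPM in mutants 1, 2 and 3, against 348, 464 and 389.8 CPM in controls 1, 2 and 3. It was 1.36-fold higher (95% interval 1.26 to 1.47, adjusted p = 0.00259), and mutant kidney 1 lay below control kidney 2, so the ranges overlapped although each litter moved upward. Agrn encodes agrin, the main heparan sulfate proteoglycan of the glomerular basement membrane, and was at 630.2, 752 and 709 CPM in mutants 1, 2 and 3, against 524, 626 and 594 CPM in controls 1, 2 and 3. Its difference was nearly the same in the 3 litters, 0.27, 0.26 and 0.26 on the log2 scale, and it was 1.2-fold higher (95% interval 1.14 to 1.27, adjusted p = 0.00434).

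**Figure D2:**
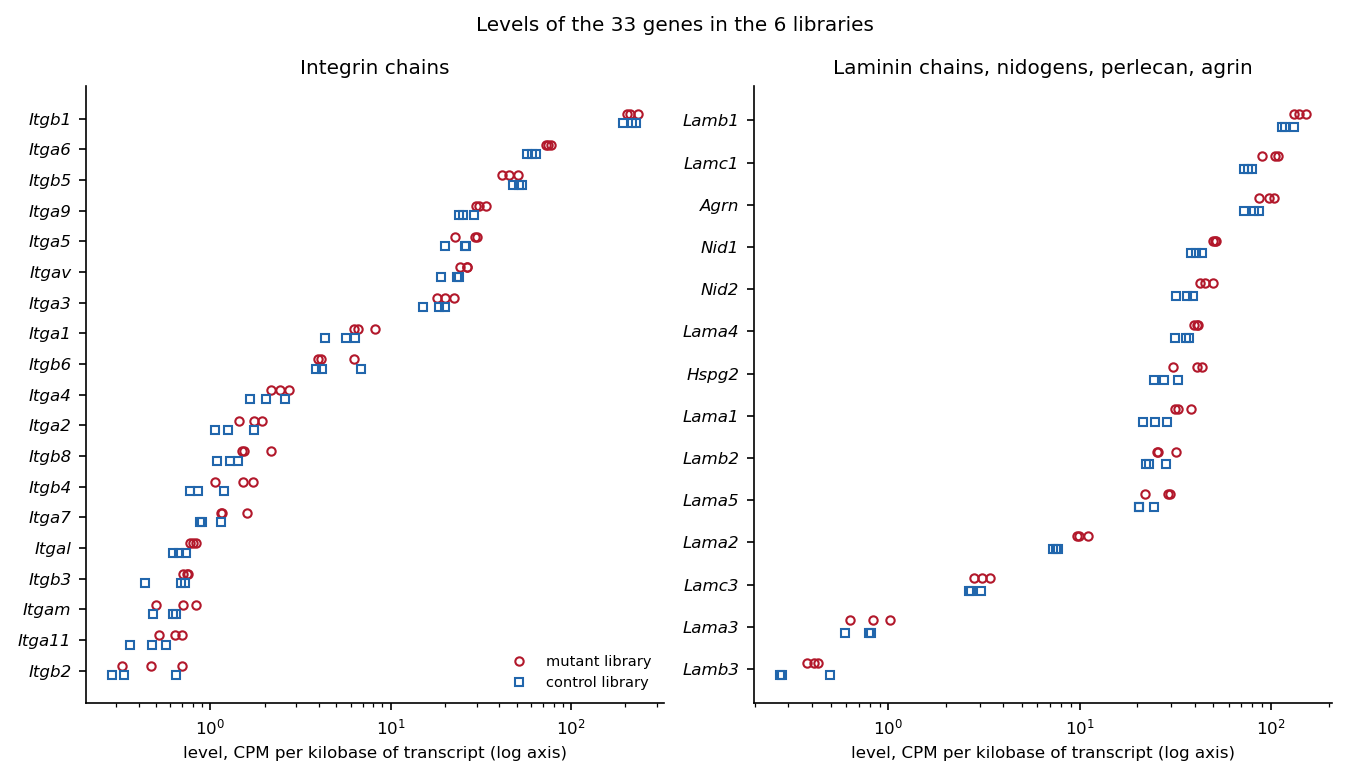
Level of the 33 genes in CPM per kilobase of transcript (log axis) in each of the 3 mutant libraries (red circles) and 3 control libraries (blue squares). Itgb1 (217 in mutants, 213 in controls) and Lamb1 (141.5 in mutants, 122 in controls) head their panels, and the shifts between groups are small beside the range between genes.

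Among integrins, both chains of the alpha 6 beta 4 receptor were higher in mutants. Itga6, the laminin-binding alpha chain, was at 333, 312 and 321 CPM in mutants 1, 2 and 3, against 276, 245 and 261 CPM in controls 1, 2 and 3. The groups of Itga6 did not overlap, the log2 difference was 0.27 to 0.34 in the 3 litters, and it was 1.23-fold higher (95% interval 1.16 to 1.31, adjusted p = 0.00365). Itgb4, which pairs only with alpha 6 and anchors epithelia to keratin filaments, was at 6.6, 9.36 and 10.6 CPM in mutants 1, 2 and 3, against 4.79, 7.43 and 5.32 CPM in controls 1, 2 and 3. Mutant kidney 1 lay inside the control range, and Itgb4 was 1.47-fold higher (95% interval 1.19 to 1.82, adjusted p = 0.0356), the largest rise of the set at a low level. That difference was carried most by litter 3, with a log2 value of 0.94, against 0.42 in litter 1 and 0.31 in litter 2. Without litter 3 it was 0.37 (limma, adjusted p = 0.0716) and without litter 1 it was 0.63 (limma, adjusted p = 0.0952). With the length correction described below Itgb4 was not called either (0.44, limma, adjusted p = 0.1), while Itga6 kept its call in these fits.

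The other laminin-binding alpha chains were not called. Itga3, the main laminin receptor chain of podocytes and tubules, ranged from 88.0 to 108 CPM in mutants and from 73.4 to 97.8 CPM in controls, with a log2 difference of 0.17 (adjusted p = 0.0604). Itga7, a muscle laminin receptor chain, ranged from 4.58 to 6.39 CPM in mutants and from 3.54 to 4.59 CPM in controls, with a difference of 0.37 (adjusted p = 0.15). Of the 2 skeletal muscle markers with a value Mylpf was called lower, with 0.836 to 0.911 CPM in mutants and 1.55 to 2.16 CPM in controls (log2 difference -0.73, adjusted p = 0.0304). All mutant values of Mylpf were below 1 CPM, so the row was tested only through its controls, which favours a call of lower. With the length correction described below Mylpf was not called (limma, adjusted p = 0.0728). Tnnt3 was not called, with 4.53 to 6.77 CPM in mutants and 4.02 to 5.64 CPM in controls (difference 0.26, adjusted p = 0.361). Itga3 and Itga7 were each above control in all 3 litters, and both passed the threshold without litter 3 (adjusted p = 0.0231 for Itga3 and 0.0324 for Itga7). Neither passed without litter 1 (adjusted p = 0.363 and 0.321) or without litter 2 (0.0909 and 0.567). Calls over all rows also rose without litter 3, to 2284 from 1574.

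Of the 3 collagen-binding alpha chains of the set 1 was called. Itga1, the collagen IV receptor chain of stroma and vessels, was at 89.2, 68.4 and 72.5 CPM in mutants 1, 2 and 3, against 69.2, 47.4 and 62.1 CPM in controls 1, 2 and 3. Each mutant exceeded its own litter's control but the groups overlapped, and Itga1 was 1.29-fold higher (95% interval 1.17 to 1.43, adjusted p = 0.0122). Itga2, an epithelial collagen receptor chain, had 10.2 to 13.7 CPM in mutants and 7.57 to 12.4 CPM in controls, with a difference of 0.33 (adjusted p = 0.117). Its adjusted p was 0.487, 0.197 and 0.0116 without litter 1, 2 and 3. Itga11, a chain of stromal collagen receptors, had 2.57 to 3.47 CPM in mutants and 1.78 to 2.81 CPM in controls, with a difference of 0.35 (adjusted p = 0.117).

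Of the chains that bind fibronectin or latent TGF-beta, Itga5, Itgav and Itgb8 rose. Itga5, the classical fibronectin receptor chain, was at 99.9, 132 and 128 CPM in mutants 1, 2 and 3, against 87.7, 112 and 114 CPM in controls 1, 2 and 3. Its groups overlapped, since both were lowest in litter 1, and Itga5 was 1.14-fold higher (95% interval 1.07 to 1.23, adjusted p = 0.0303). Itgav, the alpha chain shared by several beta chains, was at 186, 172 and 186 CPM in mutants 1, 2 and 3, against 169, 134 and 164 CPM in controls 1, 2 and 3. Itgav was 1.17-fold higher (95% interval 1.08 to 1.27, adjusted p = 0.0294), and the lowest mutant lay just above the highest control. Itgb8, which with alpha v activates latent TGF-beta, was at 18.1, 12.5 and 12.9 CPM in mutants 1, 2 and 3, against 11.9, 9.18 and 10.7 CPM in controls 1, 2 and 3. It was scarce, its groups did not overlap, and it was 1.34-fold higher (95% interval 1.15 to 1.56, adjusted p = 0.0276).

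Itga9, a receptor chain for tenascin C and VCAM1, was at 208, 217 and 237 CPM in mutants 1, 2 and 3, against 177, 167 and 204 CPM in controls 1, 2 and 3. All mutants stood above all controls and Itga9 was 1.21-fold higher (95% interval 1.12 to 1.3, adjusted p = 0.0112). Itga4, the VCAM1 and fibronectin receptor chain, had 21.1 to 26.6 CPM in mutants and 16.2 to 25.5 CPM in controls, with a difference of 0.23 (adjusted p = 0.108). Its adjusted p was 0.342, 0.374 and 0.0358 without litter 1, 2 and 3.

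The most abundant integrin chain per kilobase was not called. Itgb1, the common partner of most alpha chains above, was at 896, 782 and 806 CPM in mutants 1, 2 and 3, against 868, 744 and 828 CPM in controls 1, 2 and 3. The groups overlapped throughout, and the log2 difference of 0.03 had a 95% interval of -0.06 to 0.11 (adjusted p = 0.694). Itgb5, an alpha v partner that binds vitronectin, had a negative difference and was at 137, 168 and 149 CPM in mutants 1, 2 and 3, against 156, 176 and 169 CPM in controls 1, 2 and 3. It was lower in the mutant of each litter, with a log2 difference of -0.15 that was not called (adjusted p = 0.0669). With the length and GC correction described below Itgb5 fell, with a difference of -0.17 (adjusted p = 0.0404), and with median-ratio or trimmed-mean scaling the adjusted p was 0.0493 or 0.0495.

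Itgb6, the epithelial alpha v partner, had 18.9 to 30.1 CPM in mutants and 18.6 to 32.8 CPM in controls, with no call (difference -0.04, adjusted p = 0.753). Itgb3, the alpha v partner that is also a platelet chain, had a difference of 0.25 (adjusted p = 0.281), while of 3 platelet markers none was called. The platelet chain Itga2b averaged 6.46 CPM in mutants and 7.22 CPM in controls (difference -0.15, adjusted p = 0.355), and the chemokine Pf4 averaged 7.89 CPM in mutants and 6.49 CPM in controls (difference 0.26, adjusted p = 0.132). The third marker, Gp1bb, shares its row with Sept5. The leukocyte chains Itgal, Itgam and Itgb2 were at the low end, between 0.964 and 4.37 CPM in mutants and between 0.849 and 3.84 CPM in controls. Their differences were 0.22, 0.17 and 0.19 (adjusted p = 0.251, 0.574 and 0.46), and none was called. Of 14 leukocyte markers 1 was higher and none lower, beside 7.93% and 3.51% of all rows. Their sums were 157 to 195.5 CPM in mutants and 141 to 155 CPM in controls, without overlap.

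Most of these genes have long transcripts, and differences between the groups followed transcript length across the whole table. The median transcript of the 33 genes was 5871 bases with 53.0% GC, beside 3207 bases and 50.1% for the 13517 rows tested with a known length. Of the shortest decile of rows 0.814% were called higher, and of the longest decile 31.0%, where the median log2 difference was 0.17. In that longest decile 10 of 13 genes of the set were called, with a median of 0.33. In the 3 longest deciles together 17 of 28 genes of the set were called, beside 18.7% of all rows there, and among the shorter rows 1 of 5 was called, beside 3.48%. Across rows, which are not independent, Spearman's rho between length and the log2 difference was 0.44. Each library's deviation from the mean of all libraries had a rho with length of 0.23, -0.02 and 0.48 in mutants 1, 2 and 3, and of -0.10, -0.45 and -0.12 in controls 1, 2 and 3. The length trend was thus more positive in the mutant of every litter. What made it was not tested.

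**Figure D3:**
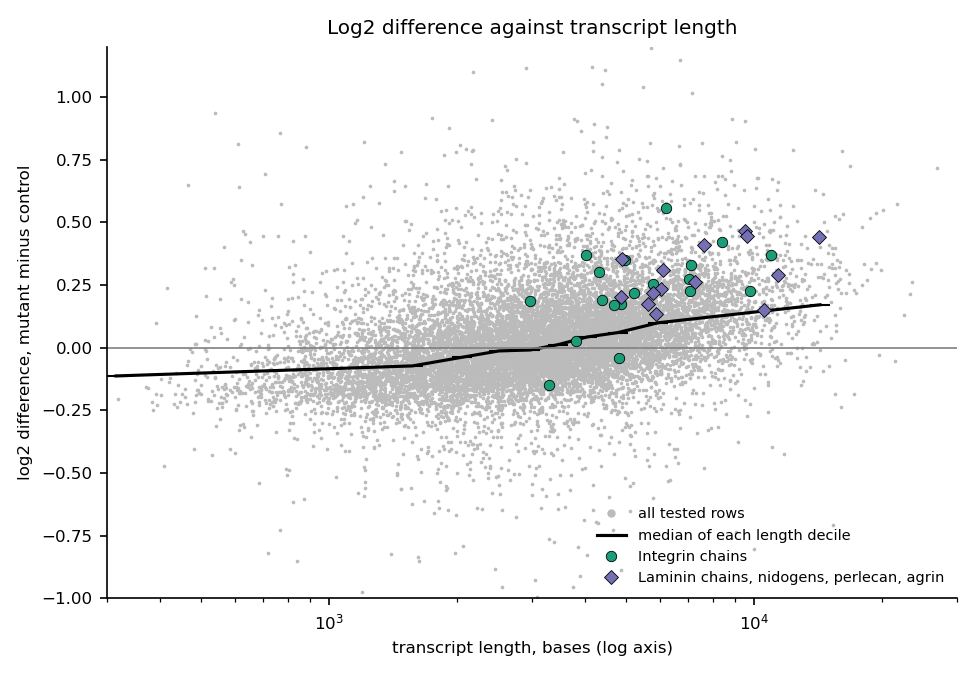
Log2 difference (mutant minus control, paired by litter) against transcript length in bases (log axis) for the rows tested (grey), with integrin chains (green circles), laminin, nidogen, perlecan and agrin genes (purple diamonds) and the median of each length decile (black line); 48 of 13517 rows lie outside the axes. Grey points shift upward with length, and most genes of the set lie above the line.

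When each library's trend on length was removed before the same paired fit, rho was -0.0021, and 2.63% of all rows were called higher and 2.01% lower. Of the set 6 genes still rose: Itga6, Lama1, Lamc1, Nid1, Nid2 and Hspg2, with log2 differences of 0.25, 0.29, 0.26, 0.20, 0.28 and 0.21 (adjusted p = 0.0129, 0.00875, 0.0108, 0.0409, 0.028 and 0.0251). They are a laminin-binding integrin chain, an alpha and a gamma chain of laminin, both nidogens and perlecan. The other 12 that had been called kept a positive difference, between 0.08 for Lamb2 and 0.44 for Itgb4, with adjusted p-values of 0.053 for Lama2 up to 0.421 for Lama5. The median over the set was 0.14, and over all rows it was -0.01. When GC content was removed as well, 7 genes of the set rose, the same 6 with Lama2 (0.26, adjusted p = 0.0458), beside 3.37% of all rows, and Itgb5 fell, beside 2.47% of all rows.

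**Figure D4:**
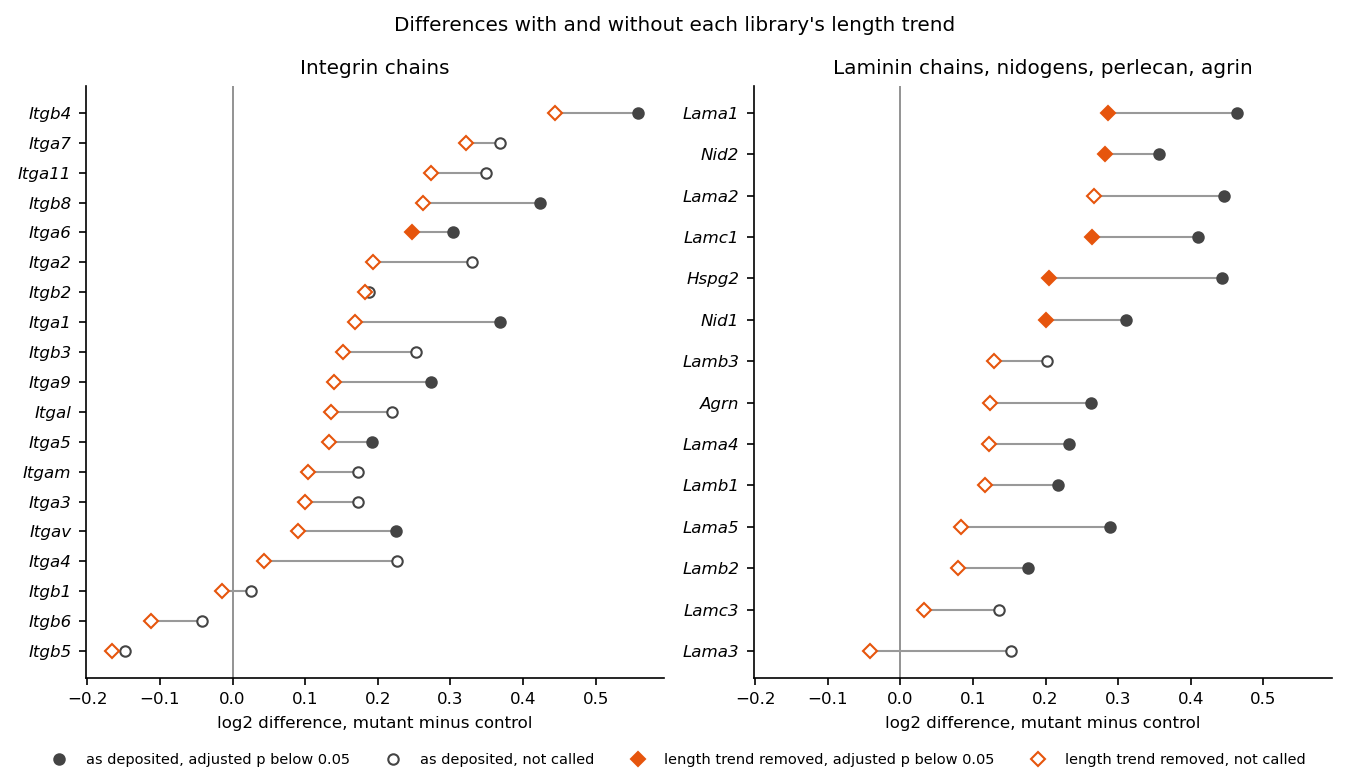
Log2 difference between mutant and control (mutant minus control) as deposited (dark circles) and after each library's trend on transcript length was removed (orange diamonds), for integrin chains (left) and laminin, nidogen, perlecan and agrin genes (right), filled where the adjusted p was below 0.05. Every value moves to the left, and Itga6, Lama1, Lamc1, Nid1, Nid2 and Hspg2 stay filled.

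Seed matches of the cluster were set beside the differences. Of the 15 genes with a match 6 were called higher, and of the 18 without a match 12 were, beside 11.9% of all rows searched with a match and 5.05% of those without. The median log2 difference was 0.22 with a match and 0.28 without one, while over all rows searched it was 0.06 with a match and -0.02 without. No test was run on these counts, and the median 3′ UTR was 1112 bases in the set and 1192 over all rows searched. These values are from the fit without the length correction, in which calls of higher rose with transcript length, from 0.814% to 31.0% over the deciles. Lengths of rows with and without a match were not compared, so these counts do not separate a match from length.

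Other genes of cell adhesion were read from 3 lists, with levels given below as mean ± SD (n = 3 each). Over all rows 2.63% were called higher with the length correction and 0.363% without the litter term. Without litter 1, 304 rows were called in either direction. Of 27 genes for cytoplasmic and membrane proteins acting with integrins (below, adaptors), 9 rose and none fell, beside 7.93% and 3.51% of all rows. Fermt1, an epithelial integrin activator, had 18.5 ± 3.8 CPM in mutants and 13.8 ± 1.64 CPM in controls (log2 difference 0.40, adjusted p = 0.0268). Vcl, which encodes the actin linker vinculin, had 109 ± 1.19 CPM in mutants and 88.6 ± 10.9 CPM in controls (log2 difference 0.30, adjusted p = 0.0242). Tln2, a talin that activates integrins, had 83.2 ± 2.62 CPM in mutants and 67.8 ± 7.23 CPM in controls (log2 difference 0.30, adjusted p = 0.0171), and Tns3, a tensin of adhesion sites, had 182 ± 8.91 CPM in mutants and 152 ± 12.8 CPM in controls (log2 difference 0.26, adjusted p = 0.0111). None of the list was called by limma with the length correction, without the litter term or without litter 1, while at an unadjusted p below 0.05 the counts were 8 with the length correction and 5 without the litter term.

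Of 21 further basement membrane genes and non-integrin receptors 13 rose and none fell, beside 7.93% and 3.51% of all rows. Collagen IV led them. Col4a6, a chain of the epithelial alpha 5 and alpha 6 collagen IV network, was at 26.4, 32 and 25.9 CPM in mutants 1, 2 and 3, against 14.9, 19.1 and 13.9 CPM in controls 1, 2 and 3. Its groups lay far apart and its log2 difference was 0.80 (adjusted p = 0.00132). Col4a3, a chain of the mature glomerular network, had 18.2 ± 2.87 CPM in mutants and 11.3 ± 2.02 CPM in controls (log2 difference 0.67, adjusted p = 0.00332). Its partner Col4a4 had 21.9 ± 1.72 CPM in mutants and 14.1 ± 3.31 CPM in controls (log2 difference 0.64, adjusted p = 0.00867), and neither gene overlapped between groups. Pxdn, the enzyme that cross-links collagen IV, had 403 ± 33.9 CPM in mutants and 301 ± 23.7 CPM in controls (log2 difference 0.42, adjusted p = 0.00132). With the length correction 8 of the list were called, these 4 among them, and without litter 1 the count was 4 and without the litter term 1. In the whole list 14 of 21 genes had all 3 mutants above all 3 controls, beside 10.2% of all rows. The row of Plec, in the same list, is joined with Parp10 and was not called.

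Of 22 integrin ligands other than laminins 11 rose and none fell, beside 7.93% and 3.51% of all rows. Fn1, fibronectin, the ligand of alpha 5 and alpha v chains, was at 831, 934 and 878 CPM in mutants 1, 2 and 3, against 578, 668 and 660.5 CPM in controls 1, 2 and 3. It had no overlap and a log2 difference of 0.47 (adjusted p = 0.000918). Vcam1, a ligand of alpha 4 and alpha 9, had 72.8 ± 2.42 CPM in mutants and 48.3 ± 8.69 CPM in controls (log2 difference 0.60, adjusted p = 0.00365). Tgfb3, whose latent form binds alpha v integrins, had 33.3 ± 1.26 CPM in mutants and 23.8 ± 2.49 CPM in controls (log2 difference 0.48, adjusted p = 0.0062). Fbn1 encodes fibrillin 1, a microfibril protein, and had 269.6 ± 26.3 CPM in mutants and 192 ± 3.75 CPM in controls (log2 difference 0.48, adjusted p = 0.00332). Libraries of the 2 groups did not overlap for any of these 4 genes, which were named for the size of their difference. In the whole list 10 of 22 genes had all 3 mutants above all 3 controls, beside 10.2% of all rows. With the length correction 6 of the list were called, among them Fn1, Vcam1 and Tgfb3 but not Fbn1 (adjusted p = 0.0629), and 6 were called without litter 1 and 3 without the litter term.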

How the data were processed

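Per the labels' protocols, Trizol was used for RNA extraction and the Illumina TruSeq kit for library preparation. The deposited table holds CPM values per gene, which the authors made from reads aligned with TopHat2 2.0.9 to build NCBIM37, with Picard and SAMtools, according to the submitters' processing notes. How reads were counted, and whether strand was used, is not given in the sources used here. Of 13965 rows 526 join overlapping genes, and 13695 matched a symbol in GENCODE M21. Library totals are not in the table and were inferred from the step between low CPM values; multiplied by these totals, every CPM value is a whole read count, to within 0.01 reads.

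Rows that reached 1 CPM in 3 or more libraries were tested on the log2(CPM + 0.5) scale with limma (3.58.1, under R 4.3.3), with a mean-variance trend, litter as a term and Benjamini-Hochberg adjustment at 0.05; fold changes are on this scale and understate low genes. Pairing is by the litter in the labels: deviations from the group means correlated at 0.62, 0.45 and 0.31 within litters and at -0.51 to 0.17 between them. Length and GC content are of the longest coding transcript, and each library's trend was removed by lowess (span 0.3). Alternatives were no litter term, the length and GC corrections, other pseudocounts and scalings, no filter, and leaving out libraries or litters. Genes, lists and the choice of the paired model were made with earlier results of these data known. Some rows that the choice by symbol would include are not reported here. Every gene of the set is named; values in each library are given for those called or with the highest level per kilobase, and in other lists the 4 largest called differences are named. Figures were drawn with matplotlib 3.10.9.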

Additional observations from a re-analysis of the deposited data

How the results depend on the processing

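Without the litter term 0 integrin chains and 0 laminin, nidogen, perlecan or agrin genes (below, basement membrane genes) were called, in place of 7 and 11 with it, and 0, 1 and 3 genes of the adaptor, partner and ligand lists, in place of 9, 13 and 11. With the length correction these 5 counts were 1, 5, 0, 8 and 6, and with the length and GC correction 1 and 6 of the set and 0 adaptors. Over all rows 7.93% were called higher in the paired fit, 0.363% without the litter term, 2.63% with the length correction and 3.37% with both. The medians of 0.23 (integrins) and 0.28 (basement membrane) became 0.14 and 0.13 with the length correction and 0.13 and 0.11 with both. With the length and GC correction, median-ratio scaling or trimmed-mean scaling 1 integrin chain, Itgb5, was called lower, in place of 0.

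Leaving out 1 litter (with the litter term) or 1 library (without it) gave 0 to 10 integrin chains, 0 to 11 basement membrane genes, 0 to 11 adaptors, 0 to 15 partners and 0 to 14 ligands, and medians of 0.20 to 0.31 and of 0.23 to 0.34. With 1 library left out the counts were at most 0, 2, 0, 2 and 3, and its group was assumed to vary like the other. Without litter 1 they were 1, 5, 0, 4 and 6. Calls over all rows, in either direction, were 304, 1392 and 2284 without litter 1, 2 and 3, in place of 1574. Calls over all rows with 1 library left out are not given here.

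Differences that turned round were not called. Itgb1 was at -0.0140 and -0.0027 with the length correction and with both, and ranged from -0.0372 to 0.0740 with a library or litter left out (-0.0325 without mutant 1, -0.0372 without control 2). Lama3 was at -0.0419 and -0.0622 with the length correction and with both, and ranged from -0.0068 to 0.3884 with a library or litter left out (-0.0068 without mutant 3, -0.0007 without litter 2). Itgam ranged from -0.0829 without litter 2 to 0.3920, and Itgb6 from -0.2514 to 0.2093 (0.0487, 0.0782 and 0.2093 without mutant 2, mutant 3 or control 1). The cause of these moves was not tested. Other pseudocounts and no filter changed no call in the set. The 2 count-based tests planned as alternatives were not run. Itgam and Lamb3, at a few CPM, had wide 95% intervals for the fold, from 0.842 to 1.51 and from 0.85 to 1.56, and depth and spread between litters were not separated there.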
